A study of Mus musculus with 18 samples.

Results

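The genes described here are 10 members of a set of stromal cytokines and receptor chains, measured in bulk RNA of cells sorted from adult mouse small intestine (18 libraries). They were found by their symbols in the deposited tables, which all 10 were, out of 23238 gene symbols in all. They comprise the IL-6 family ligand genes Il6, Il11, Lif and Ebi3, the cytokine genes Il33, Il7, Tslp and Tnfsf15, and the receptor genes Osmr and Il6st. The study deleted the Hippo kinases Lats1 and Lats2 in Pdgfrb-expressing cells. It asked what then happens to intestinal stromal cells (IntSCs) and to lymphatic endothelial cells (LECs). LECs line the lymph vessels, here of the small intestine, among them the lacteals of the villi. Sorted cells of each population were sequenced from control (WT) and deleted (KO) mice.

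There were 6 WT IntSC, 5 KO IntSC, 4 WT LEC and 3 KO LEC libraries, all from C57BL/6J mice. The labels give the WT genotype as PDGFRb+-CreERT2-Tomato+ and the KO genotype as the same alleles with Lats1f/f Lats2 f/f, so that by these labels the controls also carried the Cre and the reporter, whereas the study's methods define WT mice in general as littermates that lack the Cre and carry the floxed alleles. The Cre is switched on by tamoxifen, and its promoter is active in fibroblasts, pericytes and smooth muscle cells, so the IntSC sort mixes these types. Before that sort, leukocytes, epithelial cells and endothelial cells were depleted with beads. LECs do not belong to the cells in which this promoter is used, and KO LECs are LECs from KO mice. The study took each group from several mice and more than one experiment, and states that the purity of sorts was not assessed. The labels do not tie a library to an animal or an experiment, so the p-values measure the spread between libraries.

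IL-6 family cytokines signal through Il6st (gp130), a receptor chain that they share, which pairs with a chain specific to the ligand and activates the JAK kinases and the transcription factor STAT3. Il33 is an alarmin kept in the nucleus of stromal and endothelial cells and released on damage, Tslp acts on dendritic cells, T cells and innate lymphoid cells, and Il7 sustains lymphocytes. In the gut these factors are known as stromal or epithelial signals to immune cells and to the epithelium.

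Total counts ranged from 5361250 to 10549233 per library, and the ribosomal transcript Rn45s took 7.02% to 24.4% of them. Values below are CPM (a library's reads of a gene, scaled to the same total in every library) after TMM scaling over the 18 libraries. The protocol reads the 3′ end of a transcript, so reads of Lats1 and Lats2 need not fall where internal exons are deleted. Lats1 had a median of 19.8 CPM in WT IntSCs and 15.8 CPM in KO IntSCs, and Lats2 had 67.3 and 119 CPM. Neither passed edgeR's quasi-likelihood test (adjusted p = 0.987 and 0.252), and they do not check the labels. The 9 stromal markers summed to between 11864 and 17224 CPM in WT IntSCs and to between 7842 and 13426 CPM in KO IntSCs. The 10 LEC markers summed to between 8972 and 12952 CPM in WT LECs and to between 10371 and 15654 CPM in KO LECs. One library stood apart, WT LEC 1, whose stromal marker sum of 2235 CPM compares with 639 to 682 CPM in the other WT LEC libraries. The 5 Paneth cell markers were at 0.149 to 6.21 CPM in WT IntSCs against 24.4 to 55.3 CPM in KO IntSCs, and at 0 to 0.738 CPM in WT LECs against 12.5 to 64.8 CPM in KO LECs.

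The members lie on 10 chromosomes of the mouse assembly GRCm38, to which the submitters' mm10 corresponds. In the GENCODE vM21 annotation all 10 are protein-coding genes, and Il33 spans chr19:29925114-29960718 on the plus strand, Il6 chr5:30013114-30019981 on the plus strand, Il6st chr13:112464070-112510086 on the plus strand, Osmr chr15:6813577-6874969 on the minus strand and Il7 chr3:7569994-7613760 on the minus strand. Antisense or long noncoding genes of the opposite strand overlap Ebi3, Il7 and Tslp. The partners of Ebi3 and Tslp had 32 and 23 reads in the 18 libraries together, and as the strand setting of the count was not stated, reads of a gene and of its partner cannot be told apart.

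RefSeq windows from 250 bases before to 50 bases after an annotated start site (GRCm38.p6) were at hand for 8 members, with 10 starts, and not for Il7 and Tslp. They were searched on both strands for GGAATG, called the TEAD letters here, since TEAD factors, the partners of YAP and TAZ on which the Hippo kinases act, bind it. The study took the shorter GGAAT as the TEAD consensus, and copies of GGAAT without the final G were neither counted nor marked. Also searched were TGANTCA (AP-1), TTNNGCAA (C/EBP), GGGANTTTC (NF-kB) and TTCNNNGAA (STAT), and no match overlapped another. Il33 has 2 annotated starts, and both windows held the TEAD letters, as did the window of Tnfsf15. These 3 sequences are shown because Il33 was the member that changed in KO IntSCs and because these were the member windows with the TEAD letters. Capitals mark every match, and the lines run 5′ to 3′.
Il33 start 1, chr19:29924863-29925162, plus strand: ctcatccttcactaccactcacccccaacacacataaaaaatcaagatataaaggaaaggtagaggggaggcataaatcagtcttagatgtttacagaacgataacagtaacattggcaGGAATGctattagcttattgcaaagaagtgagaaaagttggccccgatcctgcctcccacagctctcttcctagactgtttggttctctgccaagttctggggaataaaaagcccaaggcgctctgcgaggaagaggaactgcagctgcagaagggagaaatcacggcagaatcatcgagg
Il33 start 2, chr19:29945540-29945839, plus strand: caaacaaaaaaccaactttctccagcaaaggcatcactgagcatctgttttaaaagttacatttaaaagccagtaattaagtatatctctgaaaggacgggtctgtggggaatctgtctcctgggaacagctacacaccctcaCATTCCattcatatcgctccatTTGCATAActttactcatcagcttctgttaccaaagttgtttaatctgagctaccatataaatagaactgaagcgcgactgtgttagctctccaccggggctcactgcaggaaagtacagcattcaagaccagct
Tnfsf15, chr4:63745010-63745309, minus strand: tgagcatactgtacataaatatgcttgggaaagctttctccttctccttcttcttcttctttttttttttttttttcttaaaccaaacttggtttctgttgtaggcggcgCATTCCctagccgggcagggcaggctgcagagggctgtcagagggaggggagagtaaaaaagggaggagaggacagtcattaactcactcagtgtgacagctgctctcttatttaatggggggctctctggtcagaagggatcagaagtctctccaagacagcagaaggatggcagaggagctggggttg

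In the first Il33 window the TEAD letters begin 131 bases before the start site. In the second they stand on the reverse strand from 107 bases before it, followed by a C/EBP match from 85 bases before it, and in Tnfsf15 they stand on the reverse strand from 140 bases before it. Of 32851 RefSeq windows of this length 14.7% held GGAATG, against 3 of the 10 member windows. Reads at the 3′ end do not tell which start a transcript used.

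The Il6 window is shown because it was the only member window with an NF-kB match, and the inner Il11 start because Il11, like Il6, is a ligand of the IL-6 family that had reads in nearly all IntSC libraries and few or none in LECs.
Il6, chr5:30012864-30013163, plus strand: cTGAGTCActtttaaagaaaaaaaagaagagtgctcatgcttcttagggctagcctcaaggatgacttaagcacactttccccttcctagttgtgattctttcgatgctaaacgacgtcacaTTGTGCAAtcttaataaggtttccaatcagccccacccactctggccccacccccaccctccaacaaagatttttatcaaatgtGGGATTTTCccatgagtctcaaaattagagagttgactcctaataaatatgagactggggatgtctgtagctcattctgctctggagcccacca
Il11 start 2, chr7:4778092-4778391, minus strand: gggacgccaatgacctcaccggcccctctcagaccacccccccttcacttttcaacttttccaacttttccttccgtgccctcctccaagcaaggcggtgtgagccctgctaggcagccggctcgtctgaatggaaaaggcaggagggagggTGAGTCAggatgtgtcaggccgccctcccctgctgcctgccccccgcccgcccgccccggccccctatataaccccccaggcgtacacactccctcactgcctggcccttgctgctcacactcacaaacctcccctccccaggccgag

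In Il6 the capitals mark an AP-1 match from 249 bases, a C/EBP match from 128 bases and the NF-kB match from 44 bases before the start site, and in Il11 an AP-1 match from 98 bases before it. AP-1 matches stood in 4 of the 10 member windows (Il6, Il11, Lif and Osmr) and in 7.81% of all windows, and C/EBP matches in 2 and in 10.8%. The NF-kB letters stood in 1.11% of all windows, and the STAT letters in 0 of the 10 member windows and in 8.3% of all windows. The windows of Il6st and Ebi3 and the outer start of Il11 held none of the letters searched, though the Il6st window held the shorter GGAAT.

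**Figure D1:**
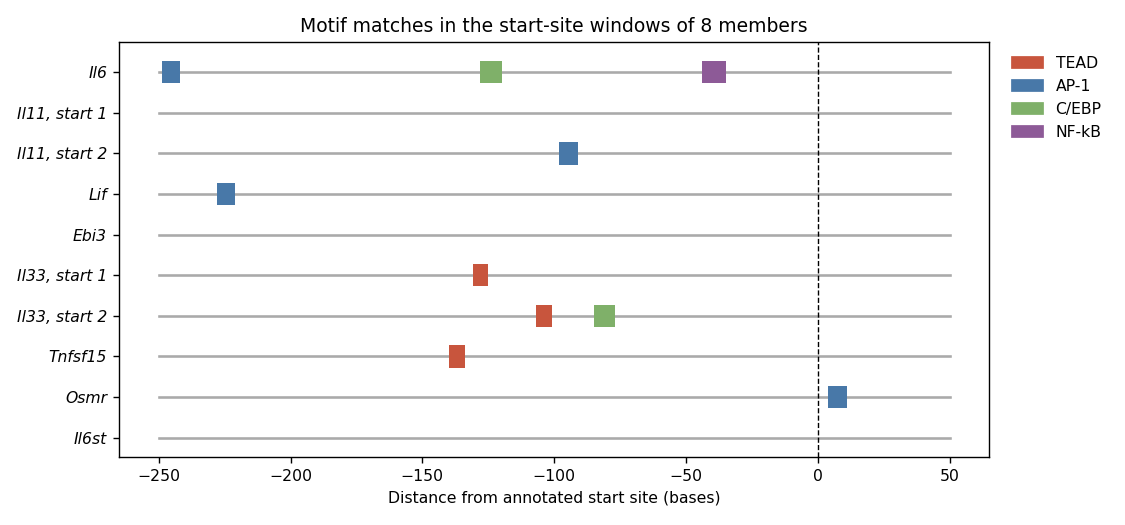
Positions of motif matches in the 10 RefSeq start-site windows of 8 members; the x axis is the distance in bases from the annotated start site (dashed line), and each box spans the bases of 1 match. The TEAD letters GGAATG stand in both Il33 windows and in Tnfsf15, AP-1 letters in Il6, Il11, Lif and Osmr, and the only NF-kB match is in Il6.

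The first comparison asked how the members differed between KO and WT IntSCs, the cells in which the kinases were deleted. Il33 was lower in KO IntSCs, and it was the only member that passed the test. Tslp and Il6st were higher in every KO IntSC library than in any WT IntSC library, without passing it. The other 7 members overlapped between the groups, with higher means in KO IntSCs for Il6, Tnfsf15, Il11, Osmr and Ebi3 and lower means for Lif and Il7. At an adjusted p under 0.05, 1 of the 10 members was called, of 8 that passed the filter on low counts, beside 1.47% of the 12421 genes tested (0.853% called higher and 0.62% called lower). Reads of bulk samples do not tell whether fewer cells of a type or less RNA per cell lies behind a difference.

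Il33 read between 79.5 and 181 CPM in WT IntSCs, with a median of 149 CPM, and 47.5, 52.6, 83.0, 80.2 and 57.0 CPM in the 5 KO IntSC libraries. WT IntSC 2 and WT IntSC 6 were the low WT libraries, and only WT IntSC 2, the lowest, lay below the upper KO libraries, so that the ranges overlapped narrowly. The means were 134 ± 40.5 CPM (SD, n = 6) and 64.1 ± 16.4 CPM (SD, n = 5), a 2.10-fold lower level (log2 fold change -1.07 ± 0.24 SE, adjusted p = 0.0259, edgeR). The exact two-sided permutation test on log2(CPM + 1) gave p = 0.0130, where the smallest value these group sizes allow is 0.00433. That test was run 30 times, for each member in 3 comparisons, and its p-values are unadjusted. The call was lost when any of 7 libraries was left out (WT IntSC 1, 3, 4 or 5 or KO IntSC 1, 2 or 5), with adjusted p up to 0.0921 and log2 fold changes from -1.19 to -0.97 over all 11 libraries left out in turn.

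The stromal markers were, like Il33, lower in KO IntSCs by group mean. Within the WT libraries Il33 and the stromal sum went together in some and not in others. WT IntSC 2, the lowest in Il33 (79.5 CPM), had a stromal sum of 17086 CPM, and WT IntSC 1, with 149 CPM of Il33, one of 12074 CPM. WT IntSC 6, the next lowest in Il33 (89.0 CPM), had the lowest sum (11864 CPM), and WT IntSC 5, with 157 CPM, the highest (17224 CPM). Of the 9 stromal markers, 2 were lower in KO IntSCs, the collagen genes Col3a1 (1.89-fold, adjusted p = 0.0438) and Col6a2 (2.45-fold, adjusted p = 0.00412), and their median log2 fold change was -0.54 beside 0.0026 over all genes. Of the 7 blood endothelial markers 1 was lower, Cd34, a gene of progenitor, endothelial and some fibroblast cells, at 816 ± 60.1 CPM against 1685 ± 548 CPM (adjusted p = 0.00688, edgeR). Another, Ly6c1, was higher, at 206 ± 68.2 CPM against 112 ± 11.95 CPM (adjusted p = 0.0390, edgeR), and 5 of the 7 had a log2 fold change above 0, with a median of 0.22. LECs held more Il33 than IntSCs. The sum of the 10 LEC markers was 426 to 517 CPM in KO IntSCs and 237 to 421 CPM in WT IntSCs, and its genes went both ways. Of 9 tested, 5 had a log2 fold change above 0 and none was called. Pecam1 averaged 87.1 CPM in KO against 37.2 CPM in WT IntSCs, and Ccl21a 12.6 against 17.9 CPM. The part of these markers in the Il33 difference was not tested.

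**Figure D2:**
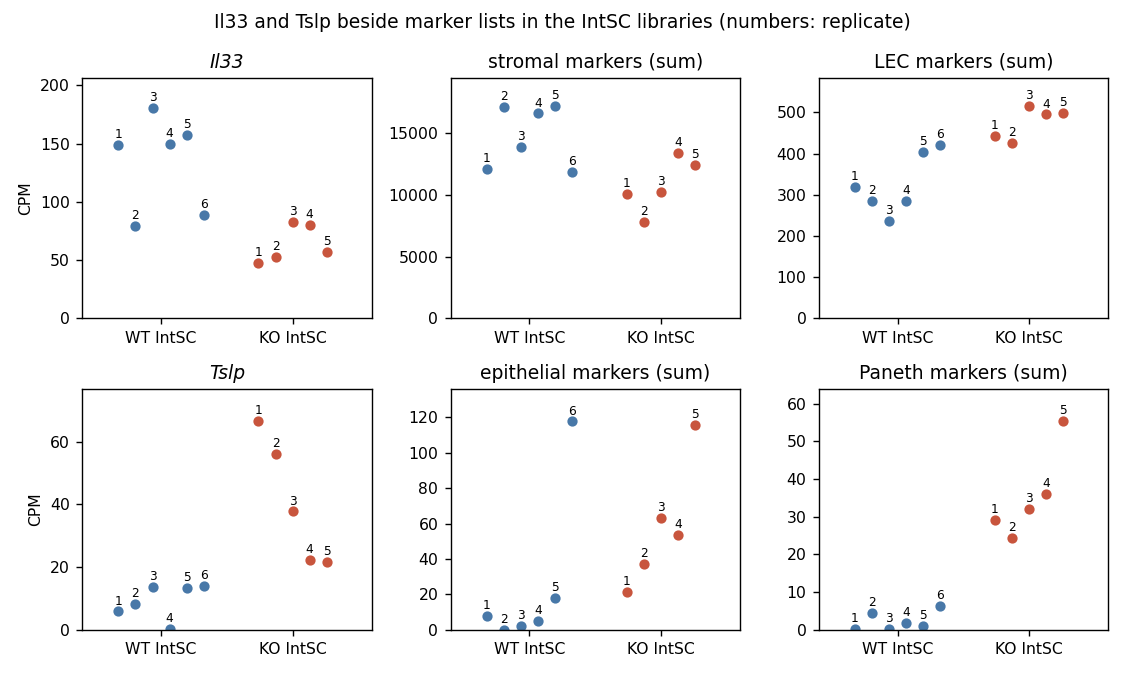
Il33, Tslp and the summed CPM of 4 marker lists in each IntSC library; each point is 1 library with its replicate number, in WT (blue) and KO (red). Il33 and the stromal sum were lower in KO, the LEC and Paneth sums and Tslp did not overlap between the groups, and the epithelial sum of WT IntSC 6 (118 CPM) was as high as the highest KO value (115 CPM).

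Tslp read between 0.334 and 13.9 CPM in WT IntSCs, with a median of 10.8 CPM, and 66.4, 56.0, 37.7, 22.4 and 21.7 CPM in KO IntSCs. All 5 KO libraries lay above all 6 WT libraries, as did 1.63% of the genes tested. The means were 9.21 ± 5.49 CPM (SD, n = 6) and 40.8 ± 20.02 CPM (SD, n = 5), a log2 difference of 2.14 ± 0.56 SE, which missed the threshold (adjusted p = 0.0575, edgeR). The exact permutation test gave p = 0.00433, the smallest value these group sizes allow. The adjusted p passed without WT IntSC 4, the lowest library (0.0288), with DESeq2 (0.00949) and with no filter beyond 1 read (0.0349). It did not pass under the other alternatives, among them limma-voom (0.107), the replicate block (0.0791) and all 4 groups in one fit (0.985), and reached 0.213 with a library left out.

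Tslp is also a product of epithelial cells, and epithelial and Paneth cell markers were present in the libraries. The 8 epithelial markers summed to between 0 and 118 CPM in WT IntSCs and to between 21.3 and 115 CPM in KO IntSCs, and none was called. In KO IntSC 1 to 5 the epithelial sums were 21.3, 37.3, 63.2, 53.7 and 115 CPM, beside the Tslp values of 66.4, 56.0, 37.7, 22.4 and 21.7 CPM. WT IntSC 6 was the highest WT library in epithelial markers (118 CPM), in Paneth markers (6.21 CPM) and in Tslp (13.9 CPM). In Tslp WT IntSC 3 was close to it, at 13.7 CPM. Of the Paneth markers Lyz1 (lysozyme) was called higher in KO IntSCs, at 20.6 ± 2.35 CPM against 0.211 ± 0.353 CPM (adjusted p = 0.00058), and KO LECs, with Paneth sums of 12.5 to 64.8 CPM, had at most 1.75 CPM of Tslp. The part of epithelial and Paneth cells in the Tslp difference was not tested.

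Il6st, the shared signalling chain, read between 59.4 and 112 CPM in WT IntSCs, with a median of 97.3 CPM, and 149, 158, 162, 146 and 131 CPM in KO IntSCs. Again all KO libraries lay above all WT libraries. The means were 91.8 ± 21.5 CPM (SD, n = 6) and 149 ± 12.04 CPM (SD, n = 5), a log2 difference of 0.70 ± 0.20 SE that missed the threshold (adjusted p = 0.0989, edgeR; exact permutation p = 0.00433). DESeq2 gave an adjusted p of 0.0320, and the other alternatives gave 0.0651 to 0.605.

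Osmr, the chain that joins Il6st to form the oncostatin M receptor, read between 22.6 and 146 CPM in WT IntSCs, with a median of 69.3 CPM, and 81.6, 126, 139.5, 87.4 and 116 CPM in KO IntSCs. The highest value of both groups was a WT library, WT IntSC 4, and the ranges overlapped. The log2 difference was 0.62 ± 0.35 SE (adjusted p = 0.614, edgeR; exact permutation p = 0.104).

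Il6, the founding ligand of the family, had few reads. It was at 0 to 4.35 CPM in WT IntSCs, with a median of 0.785 CPM, and at 3.52, 3.49, 6.19, 12.9 and 9.15 CPM in KO IntSCs. WT IntSC 4 and WT IntSC 5 lay within the range of the KO libraries and the other 4 WT libraries lay below it. The means of 1.66 ± 1.84 CPM (SD, n = 6) and 7.06 ± 4.03 CPM (SD, n = 5) rest on 67 and 261 reads. The log2 difference was 2.07 ± 1.11 SE (adjusted p = 0.592, edgeR), and the exact permutation test gave p = 0.0260. The 11 immediate early genes, which cell isolation is known to induce, summed to between 6164 and 12101 CPM in WT and to between 9693 and 14698 CPM in KO IntSCs, none of 11 being called (median log2 fold change 0.48), and their part in the Il6 values was not tested.

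Tnfsf15 (TL1A), a ligand of the TNF family, was listed at 0 in 5 WT IntSC libraries and at 1.66 CPM in WT IntSC 6, against 0, 4.43, 4.52, 4.72 and 15.1 CPM in KO IntSCs. Of the KO libraries 4 lay above every WT library and KO IntSC 1 was at 0. The log2 difference was 4.38 ± 1.66 SE (adjusted p = 0.298, edgeR; exact permutation p = 0.0303), and it rests on 8 and 219 reads. Ebi3, the chain that joins other subunits to form IL-27 and IL-35, had 2 reads in WT IntSCs, both in WT IntSC 1 (0.299 CPM), and 3.26, 1.61, 2.26, 0 and 0 CPM in KO IntSCs. It did not pass the filter on low counts, and the exact permutation test gave p = 0.121. The study counted Tnfsf15 and Ebi3 among the secreted factors that it picked on these samples, so their direction in KO IntSCs is no independent evidence.

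Il11 and Lif showed no such order. Il11, a ligand known from fibroblasts in tissue repair, read between 2.01 and 11.2 CPM in WT IntSCs, with a median of 4.80 CPM, and 6.00, 4.03, 12.3, 0.152 and 16.4 CPM in KO IntSCs. The KO libraries reached both above and below the WT range, and the log2 difference was 0.53 ± 0.90 SE (adjusted p = 0.945, edgeR). Lif, which signals through Lifr and Il6st, read between 1.48 and 6.95 CPM in WT IntSCs, with a median of 4.72 CPM, and 2.87, 0.403, 6.90, 0 and 3.74 CPM in KO IntSCs. KO IntSC 2 and KO IntSC 4 lay below all WT libraries, and the log2 difference was -0.67 ± 1.15 SE (adjusted p = 0.946, edgeR).

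Il7 was near the floor in IntSCs, with 0.167 to 6.60 CPM in WT IntSCs (median 2.20 CPM) and 0, 0, 2.38, 0.609 and 0 CPM in KO IntSCs. It did not pass the filter on low counts, and the exact permutation test gave p = 0.108.

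**Figure D3:**
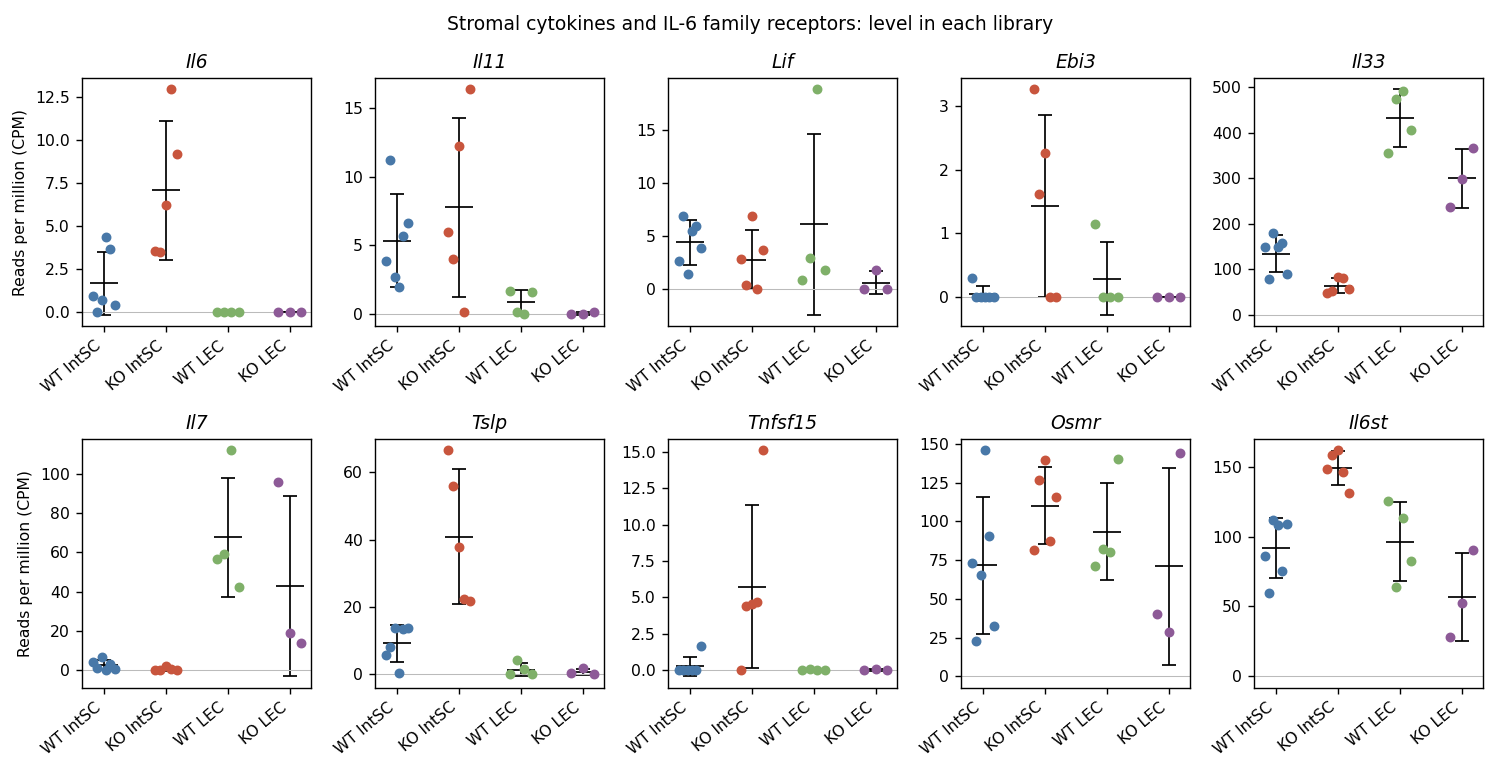
Level of each of the 10 members (CPM, linear y axis) in each library of the 4 groups; points are libraries and bars are the mean ± SD. In KO IntSCs Il33 was lower and Tslp and Il6st lay above every WT IntSC library, while Il33 and Il7 were highest in LECs and Il6 had no read there.

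The next comparison asked which of the sorted populations held the members' RNA in control mice. Il33 and Il7 were higher in WT LECs than in WT IntSCs, while Il6 had no read in any LEC library and Il11 and Tslp had few. At an adjusted p under 0.05, 2 of the 10 members were called, both higher in LECs, of 7 that passed the filter, beside 22.6% of the 12203 genes tested.

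Il7 read 56.9, 59.1, 112 and 42.5 CPM in the 4 WT LEC libraries, all above the highest WT IntSC library (6.60 CPM). Such a gap upwards, every LEC library above every IntSC library, stood in 9.76% of the genes tested. Its mean was 67.6 ± 30.4 CPM (SD, n = 4) against 2.65 ± 2.56 CPM (SD, n = 6), 25.1-fold higher in LECs (log2 fold change 4.65 ± 0.77 SE, adjusted p = 0.000400, edgeR). The WT IntSC mean of Il7 was 3.92% of the WT LEC mean, and the same share of the LEC marker sum was 2.90%. Between KO IntSCs and KO LECs the order was the reverse, with 1.39% for Il7 and 3.84% for the LEC marker sum. What part of the Il7 reads in the IntSC sort came from LECs was not tested.

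Il33 read 355, 475, 492 and 406 CPM in WT LECs, again all above the highest WT IntSC library (181 CPM). The mean of 432 ± 63.4 CPM (SD, n = 4) was 3.21-fold higher than in WT IntSCs (log2 fold change 1.68 ± 0.25 SE, adjusted p = 0.000126, edgeR). The WT IntSC mean of Il33 was 31.1% of the WT LEC mean, beside 2.90% for the LEC marker sum. Between the KO populations the shares were 21.3% and 3.84%. What part of the Il33 reads in the IntSC sort came from LECs was not tested. Without WT LEC 1, the library with the high stromal sum, the log2 fold changes were 1.77 for Il33 and 4.72 for Il7, and both calls stood.

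Il6 had no read in the 4 WT LEC libraries and none in the 3 KO LEC libraries. Taking 3 reads over the group as the floor (0.0761 CPM in WT and 0.126 CPM in KO LECs), its mean was at least 21.8-fold lower in WT LECs than in WT IntSCs and at least 56.2-fold lower in KO LECs than in KO IntSCs. It did not pass the filter in this comparison. Floors of this kind cover counting error only. The exact permutation test between the WT groups gave p = 0.0476, since WT IntSC 2 also had no read.

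Il11 read 1.71, 0.123, 0 and 1.59 CPM in WT LECs, all below the lowest WT IntSC library (2.01 CPM), a gap downwards that 11.4% of the genes tested had. The log2 difference of -2.63 ± 1.51 SE did not pass (adjusted p = 0.253, edgeR), and the exact permutation test gave p = 0.00952, the smallest value these group sizes allow. Tslp read 0, 4.18, 1.496 and 0 CPM in WT LECs, and WT IntSC 4 lay among them (log2 difference -2.70 ± 1.61 SE, adjusted p = 0.275, edgeR). Lif read 0.856, 2.95, 18.9 and 1.79 CPM in WT LECs, where WT LEC 3 alone held 202 of the 253 reads of the group.

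Neither receptor chain differed detectably between the populations. Il6st read 126, 64.1, 113 and 82.3 CPM in WT LECs, a log2 difference from WT IntSCs of 0.06 ± 0.28 SE (adjusted p = 0.914, edgeR), and its sign turned with the scaling. Osmr read 71.4, 82.2, 80.1 and 140.0 CPM, a log2 difference of 0.38 ± 0.43 SE (adjusted p = 0.612, edgeR). These intervals leave room for differences in either direction. Ebi3 and Tnfsf15 had 12 and 1 reads in the 4 WT LEC libraries, each in a single library.

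The third comparison asked whether the members differed in LECs of KO mice. None of the 10 members passed the test, of 6 that passed the filter, beside 0.0658% of the 10639 genes tested, and 0 of the 6 had an unadjusted p under 0.05, beside 7.87% of those genes. DESeq2 also called none. With 4 against 3 libraries the exact permutation test cannot go below p = 0.0571, and its lowest value was 0.114, for Il33.

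Il33 read 237, 299 and 366 CPM in KO LECs against 355 to 492 CPM in WT LECs. Of the KO libraries 2 lay below every WT library, and the log2 difference was -0.51 ± 0.26 SE (adjusted p = 0.702, edgeR; exact permutation p = 0.114). Il7 read 95.9, 18.8 and 14.0 CPM in KO LECs, with KO LEC 1 inside and the others below the WT range (log2 difference -0.64 ± 0.69 SE, exact permutation p = 0.229). Il6st read 27.8, 52.2 and 90.7 CPM, a log2 difference of -0.75 ± 0.48 SE (adjusted p = 0.892, edgeR).

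Osmr read 39.9, 28.4 and 144 CPM in KO LECs, so that the 3 libraries spanned more than the WT range. Tslp read 0.285, 1.75 and 0 CPM, and Lif 0, 1.86 and 0 CPM. Il11 and Tnfsf15 had 1 read each in the 3 KO LEC libraries, and Ebi3 had none.

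**Figure D4:**
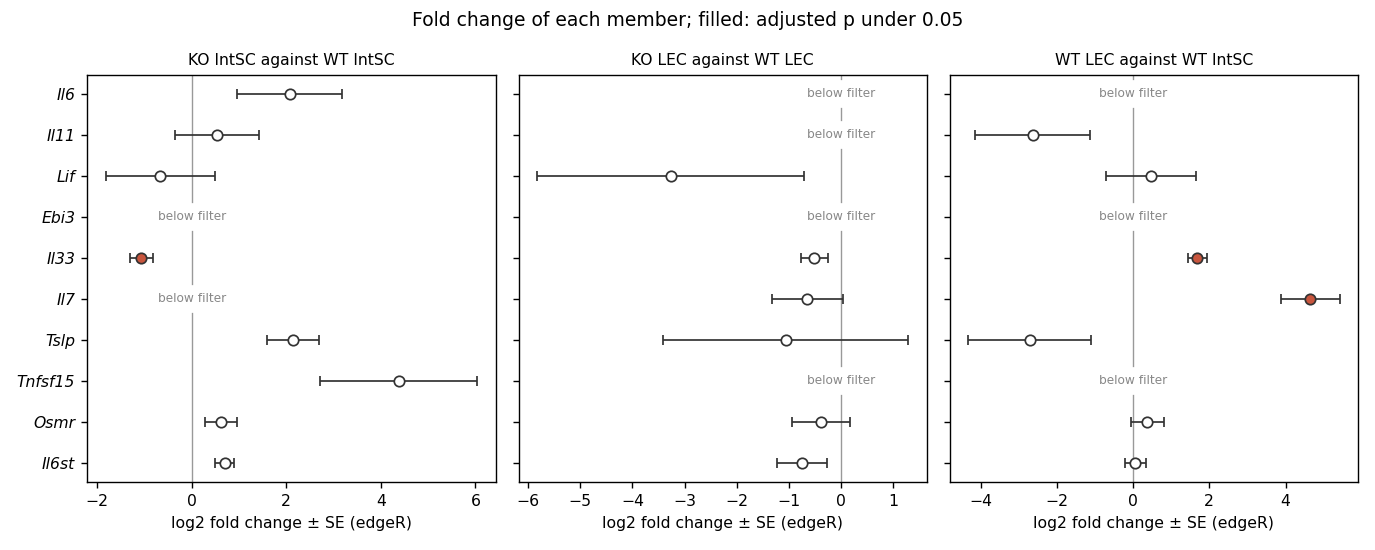
Log2 fold change of each member with its standard error in 3 comparisons (edgeR); filled points passed an adjusted p under 0.05, open points did not, and members that did not pass the filter on low counts carry no point. Il33 passed in IntSCs of KO mice and, with Il7, between LECs and IntSCs of WT mice; no member passed in LECs of KO mice.

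Whether the KO difference itself differed between IntSCs and LECs was tested as an interaction over all 18 libraries. None of the 10 members passed, beside 1.7% of the 14015 genes tested, and 2 had an unadjusted p under 0.05, Ebi3 and Il6st, beside 15.8% of those genes. DESeq2 called 1, Il6st. Il6st came closest in edgeR, with a KO difference 1.52 ± 0.44 SE higher in IntSCs than in LECs on the log2 scale (adjusted p = 0.0758). It passed without WT LEC 2 (adjusted p = 0.0494) and without KO LEC 3 (adjusted p = 0.0123), and the alternatives that did not pass gave up to 0.411. For Il33 the interaction was -0.49 ± 0.37 SE (adjusted p = 0.619), so that its KO difference was not shown to differ between the populations. For Tslp it was 3.23 ± 1.79 SE (adjusted p = 0.408) and for Osmr 1.08 ± 0.67 SE (adjusted p = 0.489). For Il6 no estimate could be had, as neither LEC group had a read.

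Across the 4 groups, Il33 followed the order WT LEC, KO LEC, WT IntSC and KO IntSC by mean (432, 300.4, 134 and 64.1 CPM). The libraries of KO LECs and WT IntSCs did not overlap, while each LEC group overlapped the other, as did the IntSC groups. Il7 had the same order (67.6, 42.9, 2.65 and 0.598 CPM), with the same single gap between LECs and IntSCs. For Tslp the order was KO IntSC, WT IntSC, WT LEC and KO LEC (40.8, 9.21, 1.42 and 0.678 CPM), with a gap only below KO IntSCs. For Il6st KO IntSCs (149 CPM) stood above WT LECs, WT IntSCs and KO LECs (96.3, 91.8 and 56.9 CPM), which overlapped one after another, and the KO IntSC libraries lay above all others. The 4 groups overlapped for Osmr, from 110.2 CPM in KO IntSCs to 70.9 CPM in KO LECs. A gap of KO IntSCs above WT IntSCs stood in 1.63% of the genes tested. For the other gaps of this paragraph the share over all genes was not counted.

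Among the genes of the pathway, members included, the ligands that act through Il6st were scarce. Of the 10 IL-6 family ligand genes, which include the members Il6, Il11, Lif and Ebi3, 6 passed the filter in IntSCs. None was called between KO and WT. Osm, the ligand of Osmr, had no read in IntSCs, and Il27, whose product pairs with that of Ebi3, averaged 0.0279 CPM in WT IntSCs and had no read in the other groups. Clcf1, a ligand that acts through Cntfr, was called lower in WT LECs than in WT IntSCs (adjusted p = 0.00772, edgeR), with 5.51 ± 3.21 CPM in WT IntSCs and no read in LECs, at least 72.3-fold lower by the same floor.

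Of the 8 IL-6 family receptor genes, 6 passed the filter in IntSCs and none was called between KO and WT. The median of their log2 fold changes was 0.46 beside 0.0026 over all genes. The 6 include the members Osmr and Il6st, whose log2 differences of 0.62 and 0.70 lie above that median. Il6ra, the receptor for Il6, averaged 31.3 ± 11.7 CPM in WT and 65.4 ± 25.3 CPM in KO IntSCs (log2 difference 1.05 ± 0.32 SE, adjusted p = 0.125, edgeR). Il11ra1, the receptor for Il11, averaged 299 ± 67.1 and 341 ± 64.2 CPM, and Lifr 104 ± 28.2 and 128 ± 47.3 CPM. Between WT LECs and WT IntSCs 1 of 6 tested was called, beside 22.6% of all genes tested. This was Cntfr, at 2.40 ± 2.73 CPM in LECs against 38.3 ± 19.5 CPM (adjusted p = 0.0147, edgeR).

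Of the 8 JAK-STAT transducers none was called between KO and WT in either population. In WT LECs Stat3 was lower (302 ± 57.7 against 688 ± 130.02 CPM, adjusted p = 0.00066, edgeR) than in WT IntSCs. Jak2 was the only transducer called in the interaction (adjusted p = 0.0314, edgeR), beside 1.7% of all genes tested. Its means were 23.9 and 28.4 CPM in WT and KO IntSCs and 13.1 and 0.259 CPM in WT and KO LECs.

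Of the 12 STAT3 targets and feedback genes, 1 was called in KO IntSCs, beside 0.853% of all genes tested called higher. This was Pim1, a kinase gene induced by STAT factors, at 96.3 ± 37.6 CPM in KO against 41.6 ± 11.4 CPM in WT IntSCs (log2 fold change 1.20 ± 0.27 SE, adjusted p = 0.0263, edgeR). The list's median log2 fold change was 0.30 beside 0.0026 over all genes. Socs3, the feedback inhibitor of Il6st signalling, averaged 148 ± 57.5 and 202 ± 49.3 CPM in WT and KO IntSCs (log2 difference 0.44 ± 0.29 SE, adjusted p = 0.725, edgeR). None of the 12 was called in KO LECs, with a median of -0.14 beside -0.03. Between WT LECs and WT IntSCs, 3 of the 12 were called, beside 22.6% of all genes tested. Lrg1 was higher in LECs (912 ± 251 against 13.9 ± 12.4 CPM) and Il4ra and Socs3 were lower.

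**Figure D5:**
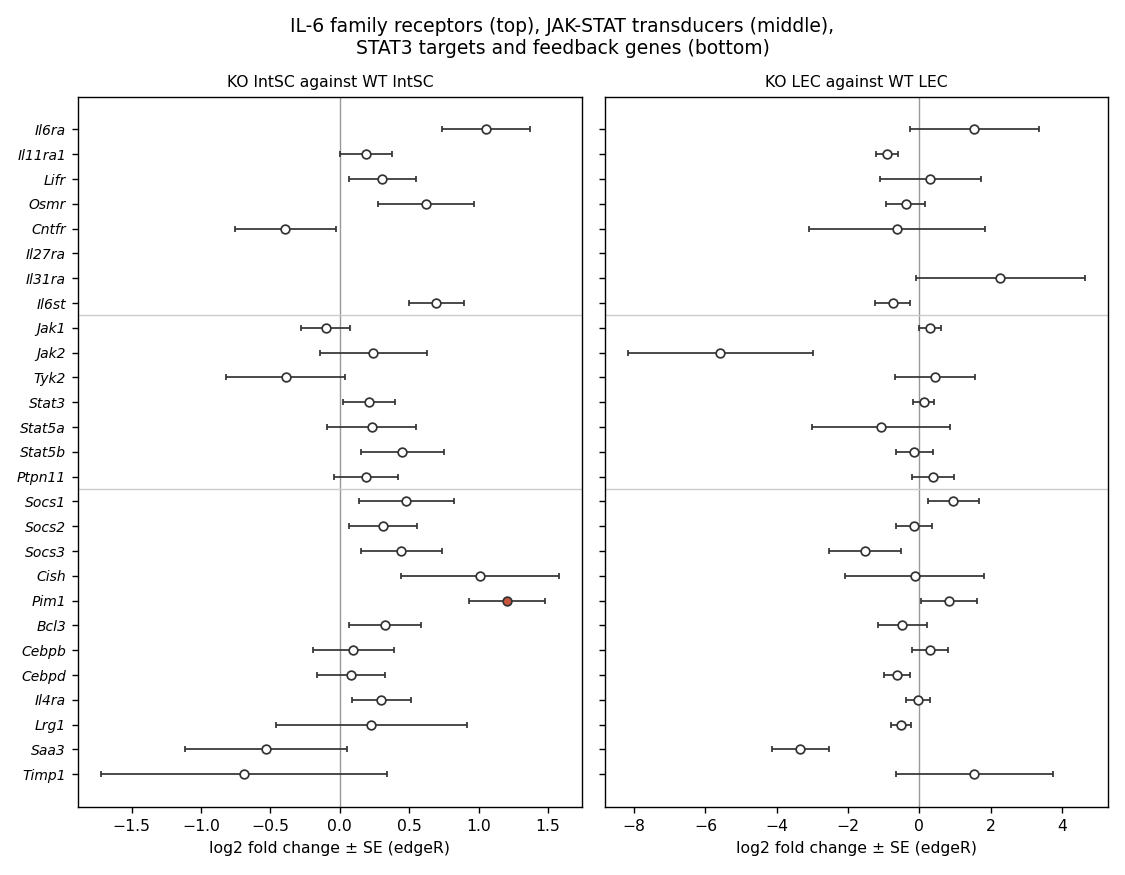
Log2 fold changes with standard errors (edgeR) of KO against WT in IntSCs (left) and LECs (right) for IL-6 family receptors, 7 JAK-STAT transducers and STAT3 targets; filled points passed an adjusted p under 0.05. Pim1 in IntSCs is the only filled point, and genes that did not pass the filter have no point.

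The receptor genes of the remaining cytokines differed in where they were read. Crlf2, the receptor chain for Tslp, was 2.59-fold higher in WT LECs (184 ± 34.2 against 70.8 ± 20.4 CPM, adjusted p = 0.00092, edgeR), and the common gamma chain Il2rg, which serves Il7, was at 108 ± 10.6 against 3.84 ± 3.11 CPM (adjusted p = 0.00022, edgeR). Il7r, which pairs with either chain, and Il1rl1, the receptor for Il33, had no read in LECs and averaged at most 0.0972 and 0.130 CPM in the IntSC groups. Il1rap, the chain that joins Il1rl1, averaged 7.63 ± 9.06 CPM in WT and 7.39 ± 6.83 CPM in KO IntSCs against 1.12 CPM in WT and 0.0432 CPM in KO LECs, without passing between the WT populations (adjusted p = 0.350, edgeR). Tnfrsf25, the receptor for Tnfsf15, averaged at most 2.76 CPM in any group. None of the 6 receptor genes was called between KO and WT in either population.

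Lists of upstream genes showed the following beside the members. Of the 9 inducing receptors none was called between KO and WT in either population. In WT LECs 1 was higher (Tlr3) and 3 lower (Tlr4, Tnfrsf1a and Tnfrsf1b) than in WT IntSCs. Over all genes tested 22.6% were called there in either direction. Of the 15 NF-kB genes none was called in KO IntSCs (median log2 fold change 0.24 beside 0.0026), and the interaction called Nfkbia (adjusted p = 0.0364, edgeR). Of the 11 immediate early genes 1 was called in KO LECs, beside 0.0658% of all genes tested. This was Junb, lower in KO LECs at 424 ± 76.1 against 1282 ± 249 CPM (adjusted p = 0.0259, edgeR). The interaction called 4 of them, Junb, Fos, Ier3 and Dusp1, beside 1.7% of all genes tested. All 4 had a higher KO difference in IntSCs than in LECs, as had 199 of the 238 genes called in all.

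The genes whose levels ran most like a member's over the 18 libraries were found by Pearson's r of log2(CPM + 1) among 8955 genes with a mean of at least 10 CPM. As the libraries fall into cell types and genotypes, and share depth and scaling, these values are descriptions. For Il33 they included Mall (r = 0.94) and Itga9 (0.93), both with higher means in LECs. For Il7 they included Fmnl2 (r = 0.97) and Tubb5 (0.93). For Tslp they were Kcne4 (r = 0.88), Adora1 (0.87) and Ehd3 (0.87), for Il6st Ankrd17 (r = 0.89), Pdgfa (0.88) and Pik3ip1 (0.85), and for Osmr Yipf4 (r = 0.79), Ikbkg (0.76) and Dcun1d3 (0.75).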

How the data were processed

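RNA from sorted IntSCs and LECs was made into QuantSeq 3′ libraries, and for each library the authors deposited raw, unscaled counts (whole numbers of reads by gene symbol). The study's methods name TopHat and Cufflinks, and the submitters' processing notes name Bowtie2, edgeR and mm10, and the program that made the counts was not given in the sources used here. Each table held 23282 rows and 23238 symbols, and rows of the 35 symbols listed more than once were summed. Totals were 5361250 to 10549233 counts per library, so that 3 reads, the floor used for a count of 0, are worth 0.284 to 0.560 CPM in a library. A read at the 3′ end stands for 1 transcript whatever its length, and deletions of internal exons and the choice of start site are not seen.

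The quasi-likelihood test of edgeR 4.0.16 (R 4.3.3; TMM factors, filterByExpr, robust fit) was run on the groups compared, with Benjamini-Hochberg adjustment over all genes tested and a threshold of 0.05, and the interaction on all 4 groups. SE is the log2 fold change divided by the root of the F statistic. The tests were checked on simulated counts. Exact permutation tests, two-sided, were also run for the members on log2(CPM + 1), a fold change on that scale understating changes at low values. Alternatives were RLE and upper-quartile factors, Rn45s left out, other filters (at least 1 read, or a mean count of at least 10), DESeq2 1.42.0, limma-voom (limma 3.58.1), a replicate block, all groups in 1 fit and each library left out. A pseudocount of 0.1 in the permutation tests was chosen after seeing the data.

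The members and gene lists were chosen with earlier results of these data known. Named were all 10 members, from each list the genes called (at most 5 per list and comparison), and for members reaching a mean of 10 CPM in any group the 3 genes with the highest r. Some genes that this rule or the lists name are not reported here. Uncalled pathway genes that are named were added after their values were seen. Motifs and sequences come from RefSeq windows (GRCm38.p6) and positions from GENCODE vM21 (GRCm38). No column of another sample was present.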

Additional observations from a re-analysis of the deposited data

Results flagged for a closer look

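In 7 of the 29 groups of 4 to 6 libraries examined over the 10 members, 1 library lay far from the others by Dixon's criterion. Chance flags about 1 in 20 groups where values are spread normally, a rate that does not hold for counts near 0. Lif was at 18.9 CPM in WT LEC 3 against 0.856 to 2.95 CPM in the other WT LEC libraries, and Osmr at 140.0 CPM in WT LEC 4 against 71.4 to 82.2 CPM. Il7 was at 2.38 CPM in KO IntSC 3 against 0 to 0.609 CPM. In the remaining 4 cases every other library of the group was at 0, for Ebi3 at 0.299 CPM in WT IntSC 1 and 1.14 CPM in WT LEC 1, and for Tnfsf15 at 1.66 CPM in WT IntSC 6 and 0.123 CPM in WT LEC 2, of which the last was 1 read. With all others at 0 any read meets the criterion, so these 4 flags show no excess over chance. No member's KO difference passed the test of a difference between IntSCs and LECs.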

How the results depend on the processing

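The number of members called in KO against WT IntSCs was 1 (Il33), 2 with no filter beyond 1 read (Il33 and Tslp), 3 with DESeq2 (Il33, Tslp and Il6st) and 0 with all 4 groups in one fit, where the adjusted p of Il33 was 0.0577, and it ranged from 0 to 1 with each library left out. In the interaction it was 0, and 1 (Il6st) with DESeq2, and 0 to 1 with each library left out. In LECs it was 0 and between WT LECs and WT IntSCs 2 or 3 under all alternatives run, the third being Il6 with all 4 groups in one fit (adjusted p = 0.0194, edgeR). Signs turned only for differences that had not passed. On the log2 scale Il11 in IntSCs was -0.035 and Tslp in LECs 0.046 with limma-voom, and Osmr in LECs ranged from -1.44 to 0.0065 with libraries left out. Between WT LECs and WT IntSCs, Lif was -0.34 with limma-voom, -0.59 with the replicate block and -1.25 to 0.83 with libraries left out (-1.25 without WT LEC 3), and Il6st was -0.015 with RLE factors, -0.051 with upper-quartile factors, -0.014 with DESeq2 and -0.088 to 0.19 with libraries left out. The interaction of Il7 ranged from -3.40 to 0.014 with libraries left out. The cause of these changes was not tested.

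Libraries of the same number deviated together little, with 0 pairs over a correlation of 0.1. The correlations were -0.06 to 0.08 in IntSCs, -0.03 to 0.02 in LECs and -0.02 to 0.04 between the KO populations. Between the WT populations they were 0.02 to 0.04, with a mean of 0.036 beside -0.0072 for libraries of other numbers. Such values cannot tell whether libraries of one number share an animal or an experiment, which the labels do not give. With the replicate block Il33 stayed called in IntSCs (1 member), no member was called in LECs or in the interaction (0), and 2 were between the WT populations. Over all genes the counts called in IntSCs were 183, 376 with DESeq2, 122 with the replicate block and 27 with all 4 groups. In LECs they were 7, 32 with no filter beyond 1 read, 20 with a mean count of at least 10, 309 with DESeq2, 12 with limma-voom, 3 with the block and 538 with all 4 groups. Between the WT populations they were 2763 and 1596 with the block, and in the interaction 238, 1023 with DESeq2, 143 with limma-voom and 16 with the block. A pseudocount of 0.1 left 5 members with an exact permutation p under 0.05 in IntSCs, 0 in LECs and 4 in place of 5 between the WT populations. That test was run on the members only, so no share over all genes stands beside these counts. By edgeR's unadjusted p under 0.05, 4 members passed in IntSCs, beside 1219 of the 12421 genes tested. Between the WT populations 2 did, beside 3970 of 12203. Il6, Il11, Lif, Ebi3, Tnfsf15 and, in IntSCs, Il7 rest on few reads, and their values also spread widely between libraries, so differences in them that did not pass are not shown to be absent.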
